A study of Mus musculus with 32 samples.

Results

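The B cell receptor complex and its coreceptors were followed through 9 genes, taken by their symbols: Cd79a, Cd79b, Ms4a1, Cd22, Pax5, Blk, Fcer2a, Cr2 and Cd37. Of these, 8 had a row in the table of 39676 genes, and Blk was not analysed here. The table holds read counts from whole tumors of 32 mice, with 8 mice in each of 4 groups. BALB/c mice carried tumors of the AB1 line and C57BL/6 mice carried tumors of the AE17 line, both of them mouse mesothelioma lines, and each line was grown either in the pleural space (IPL) or under the skin of the flank (SC). All mice were untreated females of 8 to 10 weeks, tumors were taken on day 10, and 500000 AB1 cells or 1000000 AE17 cells had been placed at either site. Each model is 1 cell line in 1 mouse strain, so that line, strain and cell number cannot be told apart. The lungs and nearby tissue had been removed from the IPL tumors before RNA was made. Mesothelial markers had low medians at both sites in AB1. Upk3b had at most 1 count in any SC tumor and a median of 0.135 CPM in AB1 IPL tumors. Wt1 had medians of 0.913 CPM in AB1 SC and 0.685 CPM in AB1 IPL tumors. AB1 IPL mouse 2 stood apart, at 31.4 CPM of Upk3b and 10.97 CPM of Wt1. In AE17 the medians were 1.86 CPM of Upk3b and 2.10 CPM of Wt1 in IPL tumors, and Wt1 had at most 5 counts in SC tumors. CPM is the count of a gene scaled to the total of its library, after TMM scaling of that total.

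The B cell receptor is a membrane immunoglobulin that signals through a pair of chains, CD79A and CD79B, encoded by Cd79a and Cd79b. Coreceptors set the strength of that signal: CD22 dampens it, and CR2 (CD21), which binds complement fragments, raises it. PAX5 is the transcription factor that holds cells in the B lineage and switches on many of these genes, while MS4A1 (CD20), FCER2A (CD23, a receptor for IgE) and the tetraspanin CD37 are surface proteins of mature B cells, and CD37 is found on other leukocytes as well.

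Sequence upstream of RefSeq starts of 3 members is shown because their RNA followed 3 different courses across the tumors, described below. The letters come from RefSeq promoter windows on GRCm38.p6, searched over the 250 bases before each start site, and only the stretch outside annotated exons is printed, 5′ to 3′ on the strand of the gene. Cd79a is read from chr7:24897247-24897380 on the plus strand, Cd22 from chr7:30879029-30879176 on the minus strand and Pax5 from chr4:44710695-44710944 on the minus strand. The RefSeq starts differ from the gene starts given below. The Cd79a stretch ends next to that gene start, 116 bases before the RefSeq start. The Cd22 stretch lies inside the Cd22 gene as placed below. Capitals mark matches to the 5 motifs searched on both strands, which did not overlap in these windows.
Cd79a: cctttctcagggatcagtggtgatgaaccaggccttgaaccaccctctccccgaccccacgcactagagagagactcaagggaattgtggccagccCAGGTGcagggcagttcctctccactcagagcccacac
Cd22: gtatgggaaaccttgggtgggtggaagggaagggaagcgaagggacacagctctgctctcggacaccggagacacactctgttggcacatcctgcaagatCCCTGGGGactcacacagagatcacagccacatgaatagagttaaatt
Pax5: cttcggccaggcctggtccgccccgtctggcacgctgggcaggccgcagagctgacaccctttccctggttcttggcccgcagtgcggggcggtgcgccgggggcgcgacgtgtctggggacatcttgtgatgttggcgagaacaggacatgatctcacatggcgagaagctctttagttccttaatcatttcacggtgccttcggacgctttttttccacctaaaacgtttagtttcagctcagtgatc

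The marked letters of Cd79a are an E-box of the kind bound by E2A (CAGGTG), 154 bases before the RefSeq start, which 17.1% of 27025 promoter windows hold. The marked letters of Cd22 are a core motif of the B cell factor EBF1 (CCCNNGGG), 48 bases before the RefSeq start, found in 11.7% of windows. The Cd22 window holds an E-box too, farther upstream within an exon that is not printed. The Pax5 window has no match to these 2 motifs, nor to the octamer ATGCAAAT (1.61% of windows), the PU.1 letters GAGGAAGT (2.44%) or TATAAA (12.97%). A match describes letters only. Windows for Cd79b and Ms4a1 were not analysed here.

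Total counts were between 15432258 and 20649645 in each mouse. Before TMM scaling, 3 counts, taken as the smallest detectable number, stood for 0.145 to 0.194 CPM in a mouse. This limit covers counting error only. Sequencing lanes went with the groups. All 8 AB1 IPL tumors were on lane 3, 6 of the 8 AB1 SC tumors were on lane 2, 5 of the 8 AE17 IPL tumors were on lane 2 and all 8 AE17 SC tumors were on lane 1. In bulk RNA, fewer B cells and less of a transcript in each B cell cannot be told apart.

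The levels of the 8 genes in all tumors are plotted as CPM after TMM scaling, and each gene is given by the lowest, the median and the highest of 8 mice.

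**Figure D1:**
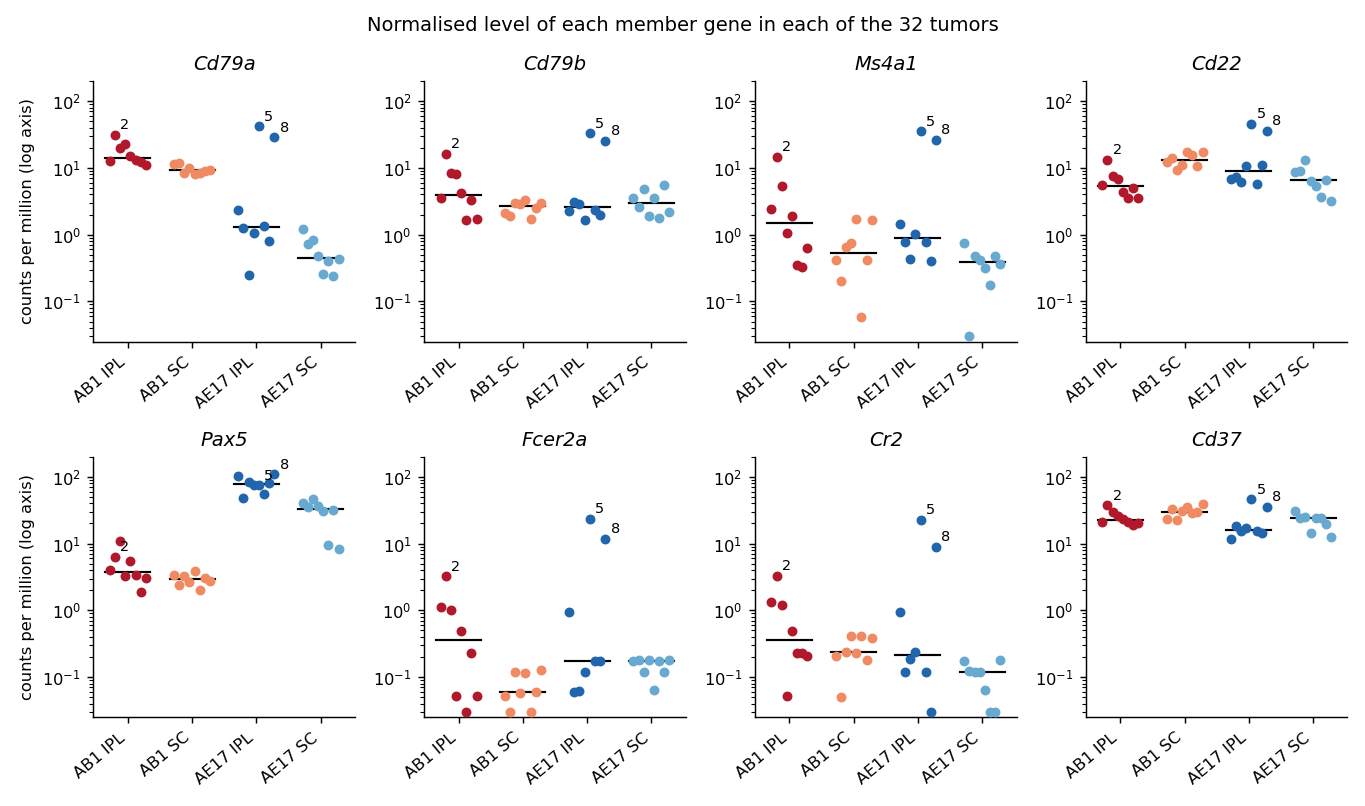
Each panel shows 1 gene, with 1 point per mouse in CPM on a log axis, the 4 groups side by side and a line at the group median; values under 0.03 CPM, zeros included, are drawn at 0.03, and AE17 IPL mice 5 and 8 and AB1 IPL mouse 2 carry their numbers. Pax5 is high in every AE17 tumor, Cd79a is high in every AB1 tumor, and AE17 IPL mice 5 and 8 stand above their group in the other 7 genes.

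Whether the site of growth changed the members was tested within each model with edgeR, with p values adjusted over all genes tested. In AB1, Cd79a, Cd79b and Ms4a1 were higher and Cd22 was lower in IPL than in SC tumors. These 4 calls came from 6 members that passed the filter on low counts, and 23% of the 14645 genes tested were called, 12.3% higher and 10.7% lower. Fcer2a and Cr2 did not pass the filter. In AE17, Cd79a and Pax5 were higher in IPL tumors, 2 of 5 members that passed the filter, beside 5.73% of 14668 genes, 2.6% higher and 3.13% lower. Ms4a1, Fcer2a and Cr2 did not pass the filter there. A member whose counts are low in 1 group passes the filter by being high in the other, so these numbers describe the members and support nothing further.

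The difference of the site effects between the models was tested in 1 fit of all 32 mice. Cd79a and Cd22 had an interaction of model and site, 2 of 6 members tested, both with a more positive site effect in AE17, beside 20.5% of 15681 genes, 8.62% more positive and 11.9% more negative in AE17. Between the models, Pax5 was higher and Cd79a and Cd22 were lower in AE17 than in AB1 SC tumors, 3 of 6 members beside 58.3% of genes, 29.7% higher and 28.6% lower. In IPL tumors, Pax5 and Cd22 were higher in AE17, 2 of 6 members beside 63.4% of genes, 31.8% higher and 31.6% lower. With all mice, the shares of members called between the models were not above the shares of all genes, while without AE17 IPL mice 5 and 8 it was 5 of 6 members in IPL tumors, beside 9702 of 15913 genes.

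No site call of a member held with sequencing lane as a covariate. With lane as a covariate in AB1, Cd79a was at 0.57 (edgeR adjusted p = 0.40), Cd22 at -1.11 (adjusted p = 0.13), Cd79b at 1.54 (adjusted p = 0.29) and Ms4a1 at 3.38 (adjusted p = 0.27) on the log2 scale. In AE17, Cd79a was at 4.15 (adjusted p = 0.18) and Pax5 at 1.45 (adjusted p = 0.16), and the interactions were 3.57 for Cd79a (adjusted p = 0.15) and 2.42 for Cd22 (adjusted p = 0.10). Within lane 3, which holds 2 AB1 SC mice, Cd79a was at 0.52 and Cd22 at -1.16, and within lane 1, which holds 3 AE17 IPL mice, Cd79a was at 4.14 and Pax5 at 1.45, with no member called in either. All of these kept their direction. In AB1 the values without lane were 0.84 for Cd79a, -1.12 for Cd22, 1.21 for Cd79b and 2.19 for Ms4a1. In AE17 they were 4.07 for Cd79a and 1.41 for Pax5. Lane went with site, so few mice tell the 2 apart in these fits, and the reason for the lost calls was not tested. Between the models, the calls of Cd79a and Pax5 in SC tumors and of Pax5 in IPL tumors held with lane, and those of Cd22 did not. At neither site did the models share a lane, so these fits compare them only through mice of the other site.

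The signalling chains come first. Cd79a (ENSMUSG00000003379.7, chr7:24897381-24902197 on GRCm38, plus strand) was at 8.10, 9.14 and 11.7 CPM in AB1 SC tumors. In AB1 IPL tumors it was at 11.1, 14.1 and 31.3 CPM. The SC mice lay close together, with an SD of 1.37 around a mean of 9.51 CPM (n = 8), and 7 of the 8 IPL mice were above every SC mouse.
The log2 fold change in AB1 was 0.84 ± 0.20 (SE; edgeR adjusted p = 0.0048), and 0.68 without IPL mouse 2, the highest (adjusted p = 0.0042). It was called with each of the 16 mice left out in turn, but not in the fit of all 32 mice, at 0.85 ± 0.62 (edgeR adjusted p = 0.32), nor with lane.

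In AE17 the same gene was almost absent. Cd79a was at 0.238, 0.453 and 1.22 CPM in AE17 SC tumors, which stood for 4 to 21 counts in a mouse. In 6 of the 8 AE17 IPL tumors it was between 0.247 and 2.38 CPM. In AE17 IPL mice 5 and 8 it was at 42.1 and 29.01 CPM, above every other tumor of that model and, for mouse 5, above every AB1 tumor.
In AE17 the change of Cd79a on the log2 scale, 4.07 ± 1.03 (SE; edgeR adjusted p = 0.034), rested on those mice. Without both of them it was 1.03 ± 0.42 (adjusted p = 0.14), and it did not pass either with DESeq2, at 0.93 (adjusted p = 0.13), and with voom, at 1.84 (adjusted p = 0.155). Leaving out mouse 8 alone gave 3.60 (adjusted p = 0.058), and the call was lost in 6 of 16 such fits, the other 5 each leaving out 1 SC mouse. The interaction of Cd79a, 3.21 ± 0.98 (edgeR adjusted p = 0.019), fell to 0.18 ± 0.42 without mice 5 and 8 (adjusted p = 0.82), to 1.26 with voom (adjusted p = 0.24), and to 2.29 without mouse 5 alone (adjusted p = 0.056).

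**Figure D2:**
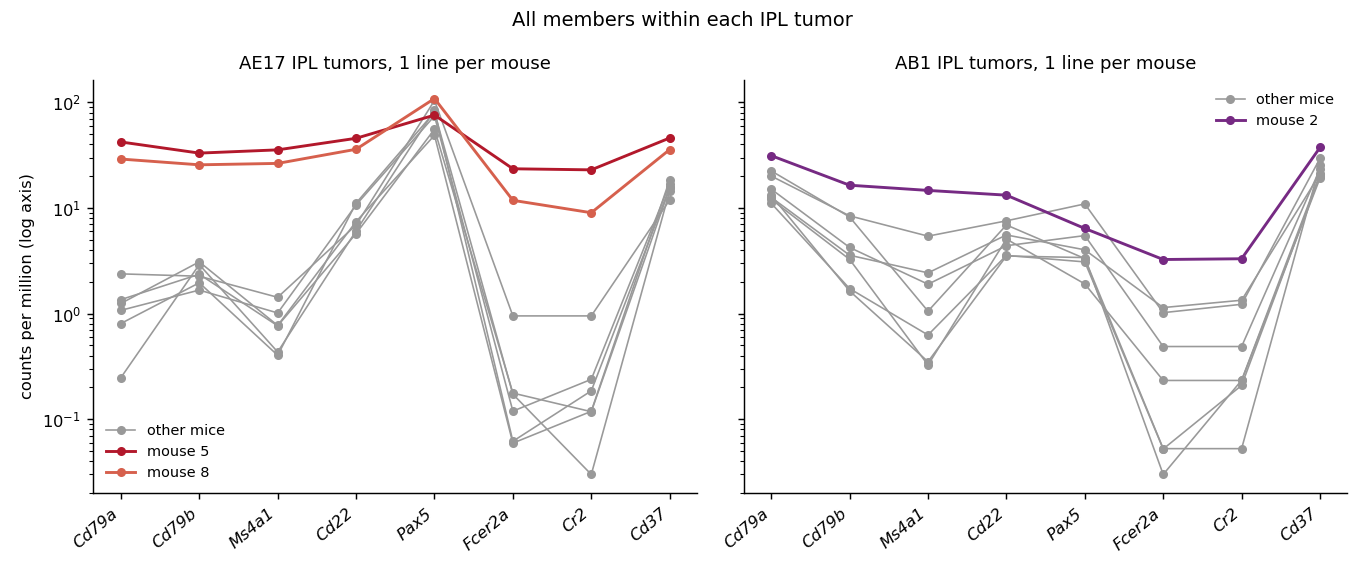
Each line is 1 IPL tumor and joins its CPM for the 8 members on a log axis, for AE17 on the left and AB1 on the right; values under 0.03 CPM are drawn at 0.03. AE17 mice 5 and 8 run between 9.01 and 45.9 CPM in every member but Pax5, where mouse 5 lies within the range of the other 6 and mouse 8 just above it, and AB1 mouse 2 is the highest of its group in every member but Pax5.

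Cd79b (ENSMUSG00000040592.11, chr11:106311341-106314762, minus strand) was at 1.69, 2.69 and 3.32 CPM in AB1 SC tumors and at 1.64, 3.90 and 16.4 CPM in AB1 IPL tumors. In AE17 SC tumors it was at 1.75, 3.03 and 5.596 CPM. In AE17 IPL tumors 6 mice lay between 1.67 and 3.09 CPM, and mice 5 and 8 were at 33.0 and 25.6 CPM. In AB1, 5 of 8 IPL mice were above every SC mouse, while in AE17 only mice 5 and 8 were.
Cd79b was called in AB1, with a log2 fold change of 1.21 ± 0.40 (SE; edgeR adjusted p = 0.037). Without IPL mouse 2 it was 0.81 (adjusted p = 0.087), with voom 0.64 (adjusted p = 0.080), and the call was lost in 9 of the 16 fits that left out 1 mouse. In AE17 it was 1.498 ± 0.66 (edgeR adjusted p = 0.17) with all mice and -0.44 ± 0.26 without mice 5 and 8 (adjusted p = 0.31). Its interaction was 0.27 ± 0.79 (edgeR adjusted p = 0.85) with all mice and -1.67 ± 0.52 (adjusted p = 0.024) without those mice, so that both its direction and its call turned on them.
The muscle sodium channel gene Scn4a lies 3830 bases from Cd79b on the same strand and reached 46.3 CPM in AB1 IPL tumors. AB1 IPL mouse 2, the highest in Cd79b, had 0.852 CPM of Scn4a, while mouse 3, the next highest in Cd79b at 8.41 CPM, had 41.5 CPM and mouse 1, with 3.57 CPM of Cd79b, had 30.9 CPM. Whether reads of Scn4a entered the count of Cd79b was not tested.

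Compared per kb of exon, the chains were out of step in a way that followed the model. The ratio of Cd79a to Cd79b was between 2.40 and 6.00 in AB1 SC tumors, with a median of 3.47, and between 1.87 and 7.89 in AB1 IPL tumors, with a median of 3.48. In AE17 SC tumors it was between 0.0418 and 0.344, with a median of 0.210. The AB1 and AE17 SC ranges did not overlap. In the tumors richest in both chains the ratio was 1.25 in AE17 IPL mouse 5, 1.11 in mouse 8 and 1.87 in AB1 IPL mouse 2, the lowest of its group, while AE17 IPL mouse 1, poor in both, was at 1.03. These ratios restate the levels above and were not tested on their own.
In SC tumors the log2 fold change between the models, AE17 against AB1, was -4.03 ± 0.77 for Cd79a (edgeR adjusted p = 4.5e-05) and 0.35 ± 0.57 for Cd79b (adjusted p = 0.62). All 8 AE17 SC mice were below all 8 AB1 SC mice in Cd79a. In IPL tumors the Cd79a difference was -0.81 ± 0.62 (edgeR adjusted p = 0.26) with all mice, and -3.85 ± 0.34 (adjusted p = 4.5e-11) without AE17 mice 5 and 8.

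**Figure D3:**
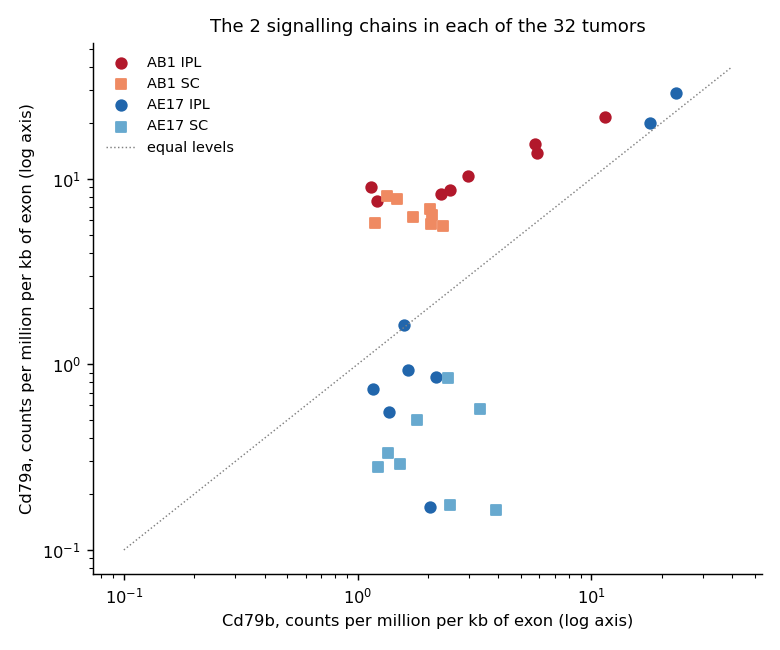
Each point is 1 tumor, placed by its level of Cd79b (horizontal) and Cd79a (vertical), both in CPM per kb of exon on log axes, with a dotted line where the levels are equal. AB1 tumors lie above the line, AE17 SC tumors lie below it, and AE17 IPL mice 5 and 8 sit just above it at the upper right.

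The coreceptors followed. Cd22 (ENSMUSG00000030577.14, chr7:30865402-30880342, minus strand) was at 9.26, 13.3 and 17.2 CPM in AB1 SC tumors and at 3.51, 5.31 and 13.2 CPM in AB1 IPL tumors. The IPL mice were the lower group: 7 of 8 were below every SC mouse, and only mouse 2 reached into the SC range.
Cd22 had a log2 fold change in AB1 of -1.12 ± 0.24 (SE; edgeR adjusted p = 0.0031), opposite in sign to that of Cd79a, and it was called with each of the 16 mice left out. Without IPL mouse 2 it was -1.35 (adjusted p = 0.00012).

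In AE17, Cd22 was at 3.15, 6.50 and 13.2 CPM in SC tumors. Among IPL tumors 6 mice lay between 5.71 and 11.1 CPM, within the SC range, and mice 5 and 8 were at 45.6 and 35.9 CPM. The log2 fold change was 1.21 ± 0.47 (edgeR adjusted p = 0.12) with all mice and 0.19 ± 0.28 (adjusted p = 0.73) without mice 5 and 8.
The interaction of Cd22 was 2.31 ± 0.55 (edgeR adjusted p = 0.0036) and stayed past the threshold, at 1.29 ± 0.38 (adjusted p = 0.019), without those mice. It was called in all 32 fits that left out 1 mouse. Between the models Cd22 was lower in AE17 SC tumors, at -0.93 ± 0.39 (adjusted p = 0.039), a call lost in 9 of 32 such fits. It was higher in AE17 IPL tumors, at 1.38 ± 0.39 (adjusted p = 0.0026), but at 0.36 ± 0.28 (adjusted p = 0.28) without mice 5 and 8.

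Cr2 (ENSMUSG00000026616.15, chr1:195136811-195176716, minus strand) was low in most tumors. It had at most 3 counts in every AE17 SC tumor and at most 7 counts in every AB1 SC tumor. In AB1 IPL tumors it was at 0.0527, 0.361 and 3.30 CPM, the highest being mouse 2 with 62 counts. In AE17 IPL it had 379 counts in mouse 5 and 158 counts in mouse 8, or 22.9 and 9.01 CPM, and at most 16 counts in the other 6 mice. The edgeR filter removed it from all comparisons named above. DESeq2, which was run without that filter, called it higher in IPL tumors at 1.75 ± 0.66 in AB1 (adjusted p = 0.040) and 3.77 ± 1.07 in AE17 (adjusted p = 0.010). The AE17 value is set against a group at or under the counting limit and is no measure of size.

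Of the surface proteins, Ms4a1 (ENSMUSG00000024673.9, chr19:11249675-11266241, minus strand) was at 0.0583, 0.536 and 1.69 CPM in AB1 SC tumors and at 0.326, 1.47 and 14.6 CPM in AB1 IPL tumors. Of the 8 IPL mice, 4 were above every SC mouse. The log2 fold change in AB1 was 2.19 ± 0.77 (SE; edgeR adjusted p = 0.048), and it was 1.27 (adjusted p = 0.165) without IPL mouse 2. The call was lost in 10 of the 16 fits that left out 1 mouse, and with voom, where it was 1.35 (adjusted p = 0.161).
In AE17 SC tumors Ms4a1 had between 0 and 13 counts, at most 0.757 CPM. Among AE17 IPL tumors it was between 0.403 and 1.43 CPM in 6 mice, and at 35.5 and 26.4 CPM in mice 5 and 8. Of the 8 IPL mice, 6 were above every SC mouse. The gene did not pass the filter in that model. Between the models in IPL tumors its log2 fold change was 1.32 ± 0.84 (edgeR adjusted p = 0.17) with all mice and -2.05 ± 0.70 (adjusted p = 0.013) without mice 5 and 8, so that the direction turned on those mice.

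Fcer2a (ENSMUSG00000005540.10, chr8:3681737-3694175, minus strand) had at most 2 counts in every AB1 SC tumor and at most 3 counts in every AE17 SC tumor. Counts over 3 were found in 5 of 8 AB1 IPL tumors, up to 61 in mouse 2, and in 3 of 8 AE17 IPL tumors. Those 3 were mouse 1 with 16 counts, mouse 5 with 388 counts and mouse 8 with 207 counts, or 0.950, 23.5 and 11.8 CPM. Fcer2a was thus detected above the counting limit in IPL tumors of both models and in no SC tumor of either. DESeq2 called it higher in IPL tumors of AB1 (adjusted p = 0.0016) and of AE17 (adjusted p = 0.0085), against groups at or under the limit.

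Cd37 (ENSMUSG00000030798.15, chr7:45233632-45239115, minus strand) was detected in every tumor. It was at 22.5, 29.9 and 39.6 CPM in AB1 SC tumors and at 19.1, 22.2 and 37.3 CPM in AB1 IPL tumors. In AE17 it was at 12.6, 23.97 and 30.9 CPM in SC tumors and between 11.9 and 18.5 CPM in 6 IPL tumors, with 45.9 and 35.7 CPM in mice 5 and 8.
Between the sites Cd37 had a log2 fold change of -0.32 ± 0.15 (SE; edgeR adjusted p = 0.13) in AB1 and 0.00 ± 0.27 (adjusted p = 0.998) in AE17. In AE17 it was -0.50 ± 0.18 (adjusted p = 0.10) without mice 5 and 8. In AB1 it passed the threshold without IPL mouse 2, at -0.41 (adjusted p = 0.028), and with voom, at -0.44 (adjusted p = 0.013). Exons of Cd37 overlap those of Tead2 on the opposite strand, which was at 46.1 to 158 CPM over the 32 tumors. The sources used here do not say whether counting used strand, so the values of Cd37 are uncertain.

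**Figure D4:**
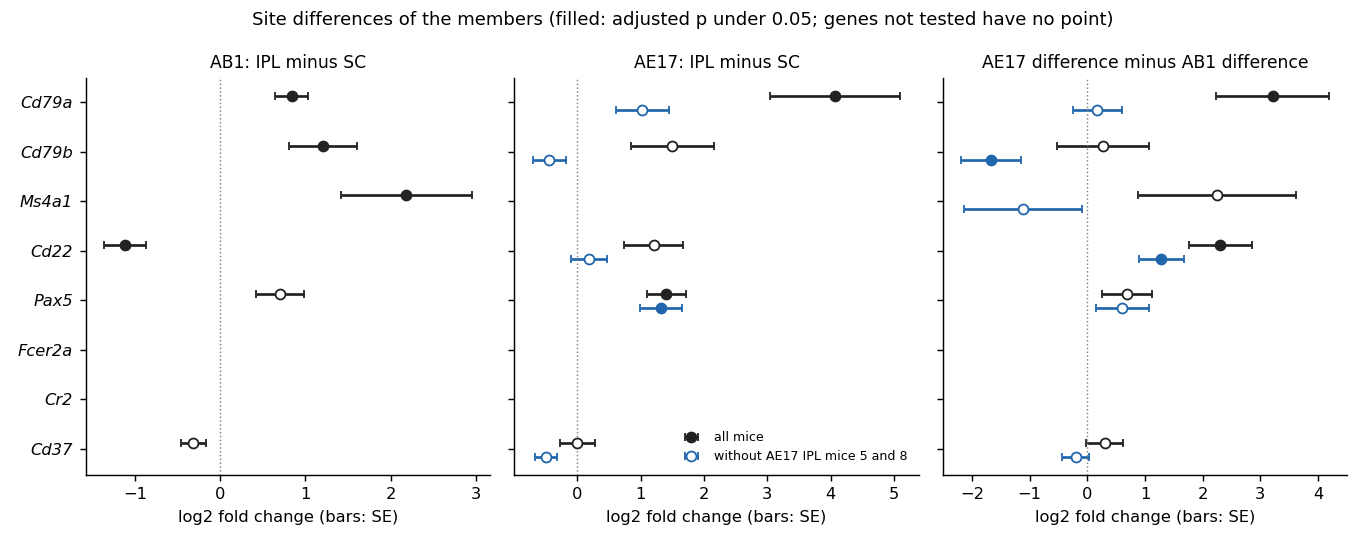
Points are log2 fold changes of each tested member with the SE as bars, for IPL against SC tumors in AB1, in AE17 and for the difference between them; filled points passed an adjusted p under 0.05, and blue points leave out AE17 IPL mice 5 and 8. Cd79a and Cd22 lie on opposite sides of 0 in AB1, and in AE17 Pax5 is the point that stays in place when mice 5 and 8 are left out.

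Pax5 (ENSMUSG00000014030.15, chr4:44524757-44710487, minus strand), the transcription factor of the set, differed between the models at both sites. It was at 1.98, 2.93 and 3.85 CPM in AB1 SC tumors and at 1.91, 3.70 and 10.9 CPM in AB1 IPL tumors, the highest there being mouse 3 and not mouse 2. In AE17 it was at 8.37, 33.5 and 46.0 CPM in SC tumors and at 48.7, 78.1 and 109 CPM in IPL tumors. Every AE17 IPL mouse was above every AE17 SC mouse, and every AE17 tumor was above the AB1 tumors of the same site.
Between the models, AE17 against AB1, the log2 fold change of Pax5 was 3.34 ± 0.33 (SE; edgeR adjusted p = 2.5e-10) in SC tumors and 4.03 ± 0.33 (adjusted p = 3e-12) in IPL tumors. Between the sites it was 1.41 ± 0.30 in AE17 (edgeR adjusted p = 0.019) and 1.32 ± 0.33 without mice 5 and 8 (adjusted p = 0.033), and it was called in all 16 fits that left out 1 mouse. In AB1 it was 0.70 ± 0.28 (adjusted p = 0.086). The site effects on Pax5 differed by 0.69 ± 0.43 between the models (edgeR adjusted p = 0.28).
AE17 IPL mice 5 and 8, with 75.6 and 109 CPM of Pax5, lay within and just above the range of the other 6, which were at 48.7 to 104 CPM. The AE17 tumors therefore held Pax5 RNA at these levels while Cd79a, Ms4a1 and Cr2 were each at 2.38 CPM or below in all of them but mice 5 and 8. Other members were present in those tumors, with Cd79b at 1.67 to 5.596 CPM, Cd22 at 3.15 to 13.2 CPM and Cd37 at 11.9 to 30.9 CPM. AE17 SC mice 6 and 8, at 9.56 and 8.37 CPM, were the lowest of their group in Pax5 and also the lowest in Cd22, at 3.67 and 3.15 CPM.

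**Figure D5:**
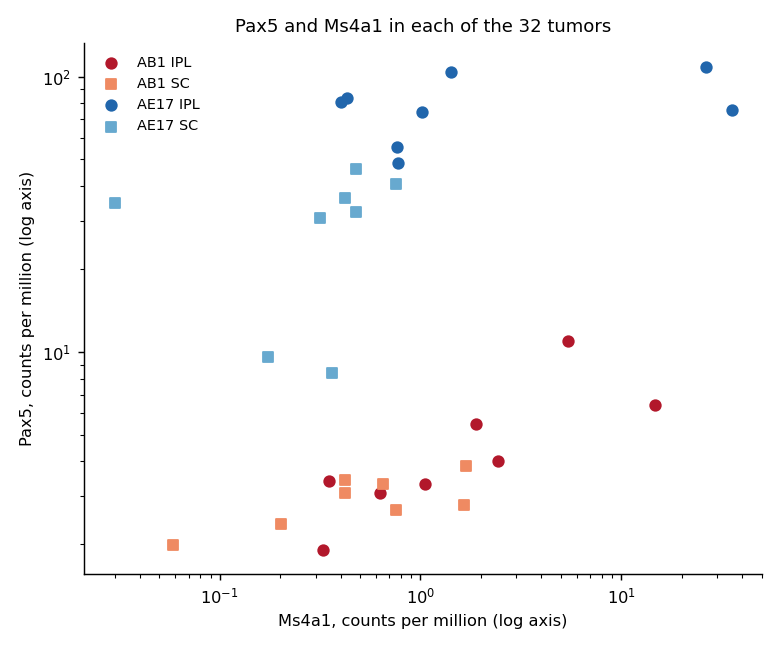
Each point is 1 tumor, placed by its CPM of Ms4a1 (horizontal) and Pax5 (vertical) on log axes; values under 0.03 CPM are drawn at 0.03. AE17 tumors lie at 8.37 CPM of Pax5 or above whatever their level of Ms4a1, and most of them overlap AB1 tumors in Ms4a1.

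Set in order by median CPM per kb of exon, which allows levels of different genes to be compared, Cd79a led in AB1 IPL tumors (9.68) and Cd37 in AB1 SC tumors (8.49). Pax5 led in AE17 IPL tumors (8.83) and Cd37 in AE17 SC tumors (6.81), while Cd79a came after Cd22 in both AE17 groups, at 0.893 and 0.311. Ms4a1, Fcer2a and Cr2 took the last places in all 4 groups, at medians of 0.0148 to 0.238. In AB1 IPL tumors, Pax5 (0.42) and Ms4a1 (0.24) were neighbours in this order whose ranges over mice overlapped.

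AE17 IPL mice 5 and 8 and AB1 IPL mouse 2 were rich in antibody RNA. Igkc, the constant region of the kappa light chain, was at 519 and 571 CPM in AE17 mice 5 and 8 and at 1429 CPM in AB1 mouse 2, where the group medians were 11.3 and 94.3 CPM.
Other tissues moved with some of these tumors. The 5 fat cell markers with a row summed to 316 CPM in AE17 mouse 5 but to 18.2 CPM in mouse 8, and the 5 heart muscle markers to 180 and 8.84 CPM, the highest and the lowest of that group. The fat marker sum of mouse 8 was the next highest after mouse 5, with a group median of 1.05 CPM. The skeletal muscle markers summed to 632 CPM in mouse 5, the highest of the group, and to 65.7 CPM in mouse 8, near the lowest (55.5 CPM). The T cell markers summed to 187 and 157 CPM and the pan-leukocyte genes to 1353 and 1426 CPM in those mice, the top values of the group. In AB1 mouse 2 the fat markers summed to 104 CPM, the highest of its group, and heart markers to 2.61 CPM and skeletal muscle markers to 96.4 CPM, the lowest. The pan-leukocyte genes (873 CPM, median 673) and the markers of macrophages and monocytes (2720 CPM, median 1784) were highest there too. The mesothelial genes Upk3b and Wt1 were also highest of the group there, at 31.4 and 10.97 CPM, against medians of 0.135 and 0.685 CPM. The part of these tissues in the member levels was not tested.

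The rest of the receptor pathway was read from lists written with earlier results of these data known. Of 30 genes of B cell receptor signalling, 25 were tested in AB1, and 2 were higher and 10 lower in IPL tumors, with a median log2 fold change of -0.31 beside -0.00 over all genes, of which 12.3% were higher and 10.7% lower. This background holds for all AB1 lists. With lane as a covariate most list calls in AB1 were lost: edgeR called 386 genes in all, 107 higher and 279 lower, with 0 of the 25 signalling genes higher and 1 lower (8 at an unadjusted p under 0.05), and 0 genes of the transcription factor, mature surface, early, germinal centre and plasma cell lists (5, 2, 0, 1 and 2 at an unadjusted p under 0.05). It called 3 of 8 T cell markers, 3 of 6 plasmacytoid dendritic cell markers, 1 of 3 B-1 cell genes, 1 of 7 pan-leukocyte genes and 0 of 7 markers of macrophages and monocytes, all of these lower. Over all 14645 genes of the fit with lane, 2440 had an unadjusted p under 0.05. In the fit without lane, the signalling genes with the lowest adjusted p values were Fcgr2b, an inhibitory Fc receptor (-1.36, edgeR adjusted p = 1.6e-05), and Pik3cd, a lipid kinase (-0.75, adjusted p = 0.00049). Next were Malt1, a protease of NF-kB signalling (-0.996, adjusted p = 0.00050), and Ptprc, which encodes the leukocyte phosphatase CD45 (-1.18, adjusted p = 0.0018). Most of these act in T cells or myeloid cells too. In the same tumors 8 of 8 T cell markers, 5 of 7 markers of macrophages and monocytes and 5 of 7 pan-leukocyte genes were lower in IPL tumors, and the summed pan-leukocyte level was 450 to 873 CPM in IPL against 841 to 1424 CPM in SC tumors. Cd22 was lower together with these genes, and Cd79a, Cd79b and Ms4a1 were higher, while their part in either was not tested.

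Of 12 transcription factors of B cells, all tested in AB1, 3 were higher and 3 lower. Pou2af1, a coactivator of immunoglobulin genes, was higher by 3.93 ± 0.80 on the log2 scale (edgeR adjusted p = 0.0019) and Ebf1, which acts with PAX5, by 0.67 ± 0.15 (adjusted p = 0.0040). Ikzf3 (-1.18, adjusted p = 0.00082) and Ikzf1 (-0.65, adjusted p = 0.0038), zinc finger factors of several lymphoid lineages, were lower. Of 9 mature B cell surface genes tested, 2 were higher, Ighm (3.14, adjusted p = 0.012) and Ighd (1.97, adjusted p = 0.024), and 3 were lower, among them Cd40 (-0.97, adjusted p = 0.0018) and Ly9 (-0.58, adjusted p = 0.0094).
Plasma cell genes were split likewise. Igkc (3.69, adjusted p = 0.0088) and Jchain, the joining chain of secreted IgM and IgA (3.35, adjusted p = 0.016), were higher and the transcription factors Irf4 (-1.37, adjusted p = 0.011) and Prdm1 (-0.49, adjusted p = 0.030) were lower, 4 of 6 genes tested.
Plasmacytoid dendritic cells, which can express Cd22, were read from 7 markers. Siglech (-1.29, adjusted p = 0.0023), Ccr9 (-1.504, adjusted p = 0.00055) and Klk1 (-1.36, adjusted p = 0.0011) were lower and Cox6a2 (2.97, adjusted p = 0.0014) was higher, of 6 tested in AB1 with edgeR. Cox6a2 is a gene of muscle as well, and the 6 skeletal muscle markers tested were higher in AB1 IPL tumors. The part of either cell type in these values or in Cd22 was not tested. Ccr9, which the B-1 cell list holds too, was the only 1 of 3 B-1 cell genes tested that passed.
Of the remaining B cell lists, Cd93 of early B cells (0.47, adjusted p = 0.040) was the 1 gene tested with edgeR. DESeq2, without that filter, tested 6 early B cell genes and called 5 higher and 0 lower, against SC tumors where most were near 0. Over all 28091 genes of that fit, DESeq2 called 2579 higher and 1884 lower. Genes near 0 in SC tumors could hardly be called lower, so this count describes these genes only. Neil1 of the germinal centre list (0.74, adjusted p = 0.0029) was 1 of 5 tested. Rag1 and Vpreb3, genes of early B cells of which the first is made by thymocytes too, were at 4.44 and 3.21 CPM in AB1 IPL mouse 3 and at most 0.0526 and 0.126 CPM in AB1 SC tumors. Cxcl13, the chemokine that draws B cells through CXCR5, was at 72.1 CPM in AB1 IPL mouse 2 and 49.1 CPM in mouse 3, but its medians were 28.6 CPM in AB1 IPL and 26.6 CPM in AB1 SC tumors, and it was not called between the sites (0.35 ± 0.39, edgeR adjusted p = 0.55). Ccl21a, 1 of 2 tested genes of the lymph node stroma list, was called higher in the fit without lane (3.895 ± 0.86, edgeR adjusted p = 0.0034). Its medians were 6.44 CPM in AB1 IPL and 0.374 CPM in AB1 SC tumors.

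In AE17, 0 of 24 signalling genes tested passed with edgeR, and 4 of them had an unadjusted p under 0.05. With DESeq2 2 passed, and with voom 2. Over all 14668 genes, 5.73% passed with edgeR (2.6% higher, 3.13% lower) and 3696 had an unadjusted p under 0.05. Of these genes 3925 passed with voom (2051 higher), and DESeq2 called 1774 of 28453 genes (878 higher). These shares are the background for the other AE17 lists with all mice too. Of 11 transcription factors tested 0 passed with edgeR, 1 had an unadjusted p under 0.05, and 1 passed with DESeq2 and 1 with voom. Ighd (4.02 ± 1.07, edgeR adjusted p = 0.041) was the only 1 of 10 mature surface genes that passed, and Igkc (5.20 ± 1.31, adjusted p = 0.034) and Jchain (5.07 ± 1.29, adjusted p = 0.035) were 2 of 6 plasma cell genes. Cd93 (0.32 ± 0.08, adjusted p = 0.036) was higher too. With lane as a covariate none of these 4 calls held, since edgeR then called 0 genes higher and 1 lower in AE17, with 2362 at an unadjusted p under 0.05. Without mice 5 and 8, 0 genes of these 3 lists were higher with edgeR, and 1 mature surface gene and 1 plasma cell gene were lower. An unadjusted p under 0.05 was reached by 2, 1 and 1 genes of the mature surface, plasma cell and early lists. Over all 14858 genes of that fit, 418 were higher, 473 were lower and 3697 had an unadjusted p under 0.05. With all mice, DESeq2 called 1, 0 and 1 genes of these lists higher and voom 0, 0 and 1. The Igkc median over the 8 AE17 IPL mice was 11.3 CPM, against 3.04 CPM in SC tumors.

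Between the models, 6 signalling genes were higher and 6 lower of 27 tested in AE17 against AB1 SC tumors, a smaller share than the 58.3% called over all genes. Blnk, the adaptor downstream of the receptor, was higher at 1.06 ± 0.16 (edgeR adjusted p = 1.1e-06), as was the kinase gene Lyn at 0.88 ± 0.14 (adjusted p = 3.2e-06), and Cd81 (-0.62 ± 0.08, adjusted p = 4.2e-08) and Fcgr2b (-1.07 ± 0.16, adjusted p = 1.0e-06) were lower. Ebf1, the usual partner of PAX5, was lower in AE17 in SC tumors (-1.13 ± 0.17, edgeR adjusted p = 1.0e-06) and in IPL tumors (-1.28 ± 0.17, adjusted p = 8.1e-08), where Pax5 was higher. Which cells of these whole tumors held the RNA of either gene was not tested. In IPL tumors 16 of 27 signalling genes were higher and 1 lower, beside 31.8% of all genes higher and 31.6% lower, and so were 7 of 7 pan-leukocyte genes, 7 of 8 T cell markers and 5 of 7 markers of macrophages and monocytes, whose part in this was not tested.

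The genes most like a member were sought among 15674 gene symbols, by Pearson correlation of log2 CPM centred within each group over the 32 mice. For Cd79a they were Cxcr5, a homing receptor of B cells (r = 0.86), Ighd (0.86), Ighg2b (0.85), Pla2g2d (0.83) and Dtx1 (0.83). All of these values rest on AE17 IPL mice 5 and 8 in part: without them r was 0.55, 0.51, 0.38, 0.52 and 0.63 over 30 mice. For Cd22 they were Fcrla, an intracellular Fc receptor-like protein of B cells (0.94), Iglc3 (0.93), Cacna1e (0.90), Spib (0.90) and Il16 (0.89), and without those mice r was between 0.79 and 0.87. Fcrla and Spib are expressed by B cells, and SPIB also acts in plasmacytoid dendritic cells.
Among the members, Cd79a had r = 0.78 with Cd79b, 0.75 with Ms4a1, 0.80 with Cd22 and 0.74 with Cd37, and 0.29, 0.37, 0.47 and 0.32 without mice 5 and 8. Its r with Pax5 was 0.23. For Pax5, chosen after its values were seen, the nearest gene was Abcg3 (0.85, and 0.85 without those mice), and the nearest member was Cd22, at place 1045 (0.49). Without mice 5 and 8, r of Pax5 was 0.61 with Cd22, 0.50 with Cd79b, 0.496 with Ms4a1 and 0.29 with Cd79a. These tumors share lanes and scaling, and the correlations are given as a description.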

How the data were processed

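Counts of reads per gene were deposited by the authors without normalization. Per the labels, polyA RNA of whole tumors was sequenced as 50 bp single-end reads, and the submitters' processing notes name bcl2fastq 1.8.4 and HISAT2 2.0.4. The counting setting for strand is not given in the sources used here. Columns were matched to mice by their labels, and no column belonged to another sample. Within groups, the 112 pairs of mice had chi-square values of 5.92 to 148.0 for each degree of freedom, so no library was a copy. Replicates were separate tumor-bearing mice, and p values measure the spread between them.

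Tests used edgeR 4.0.16 in R 4.3.3 (filterByExpr, TMM, robust quasi-likelihood F test, two-sided), with Benjamini-Hochberg adjustment over all genes tested and a threshold of 0.05. The study's own tool, DESeq2 (1.42.0), and voom in limma 3.58.1 were alternatives. CPM used TMM factors over 32 mice, log2 CPM a prior count of 2. SE is the log2 fold change over the root of F. Fits were checked on simulated data. Exon lengths and positions came from GENCODE M21 (GRCm38), where 36719 of 39676 identifiers matched with their version and all 8 members did. Promoters came from RefSeq.

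The members, the gene lists and the tests were chosen with earlier results of these data known. Beside the members, at most 4 called genes of a list with the lowest adjusted p in a comparison were named, with defining markers where a list stands beside a result, the 5 genes most correlated with Cd79a and Cd22, and genes next to a member. Mesothelial markers and the per-mouse marker genes named beside a tumor were chosen after their values were seen. Alternatives were other normalizations and filters, a replicate block, sequencing lane, and leaving out mice. The values of 1 further gene are not reported here.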

Additional observations from a re-analysis of the deposited data

Results flagged for a closer look

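The site effect differed between the models for 2 members, by the interaction term of the fit of all 32 mice. For Cd79a the difference was 3.21 on the log2 scale, between 0.84 in AB1 and 4.07 in AE17, both higher in IPL tumors. For Cd22 it was 2.31, between -1.12 in AB1 and 1.21 in AE17. The first value rests on AE17 IPL mice 5 and 8, without which it was 0.18, and the second was 1.29 without them.

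In 32 sets of 8 values, 1 for each member and group, the gap between an extreme mouse and its neighbour was compared with the whole range on the log2 scale. It was over 0.526 of the range in 1 set, where chance alone would pass about 1 in 20. That set was Fcer2a in AE17 SC tumors, where mouse 5, with 1 count, lay 0.53 of the range below the next mouse. All 8 of those mice had 3 counts or fewer. AE17 IPL mice 5 and 8 did not pass, since the measure compares 1 extreme mouse with its neighbour.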

How the results depend on the processing

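Numbers of members called moved with the setting. In AB1 (4 called) it was 6 of 8 tested with DESeq2, 3 with voom, 2 with the replicate block, 2 at an adjusted p under 0.01, 1 with all 32 mice in 1 fit, and 0 with lane as a covariate or on lane 3 alone. In AE17 (2 called) it was 1 with voom, without a filter, with at least 10 counts in every mouse, with the block or without IPL mice 5 and 8, 4 with all 32 mice in 1 fit, and 0 with lane as a covariate, on lane 1 alone or at an adjusted p under 0.01. For the interaction (2 called) it was 1 with voom, with at least 10 counts, with the block and at an adjusted p under 0.01, and 0 with lane. For AE17 against AB1 in IPL tumors (2 called) it was 4 with DESeq2, 1 with lane and 5 without mice 5 and 8. Leaving out 1 mouse gave 2 to 5 members in AB1, 1 to 3 in AE17, 1 to 2 for the interaction, 2 to 4 between the models in SC and 2 to 3 in IPL tumors. With DESeq2 the members called between the sites in AE17 included Pax5, Cr2 and Fcer2a, but not Cd79a.

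Directions turned only for members not called with all mice. In AE17, Cd37 was at 0.00 with all mice and at -0.0024 with DESeq2, -0.27 with voom, -0.00038 with DESeq2 size factors, -0.0040 with total counts, -0.0094 without a filter, -0.0018 with 10 counts, -0.11 with the block, -0.0016 with lane, -0.0020 in 1 fit, -0.0054 on lane 1, -0.50 without mice 5 and 8, and between -0.26 and 0.090 without 1 mouse. Cd79b in AE17 was -0.013 with voom and -0.44 without mice 5 and 8. Its interaction was -0.68 with voom, -0.38 with the block, -1.67 without mice 5 and 8 and between -0.41 and 0.69 without 1 mouse. In IPL tumors between the models it was -0.29 with voom, -1.32 without mice 5 and 8 and between -0.057 and 1.04 without 1 mouse. Ms4a1 was -1.12 in the interaction without mice 5 and 8, and between the models in IPL tumors -0.19 with voom, -0.24 with lane and -2.05 without those mice. Cd37 was -0.20 in the interaction without them. The cause was not tested.

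Same-numbered IPL and SC mice did not deviate together in every pair. The correlation of deviations was below 0 in all 8 AB1 pairs (mean -0.118). In AE17 it was between 0.155 and 0.271 in 5 pairs, 3 of them best matched by their own number, and between -0.227 and -0.0651 in the other 3, so the numbers were not taken as pairs. With the block 2263 genes were called in AB1, 661 in AE17 and 2398 for the interaction.

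Over all genes, calls differed by over 1.5 times from 3374 in AB1 with lane (386), on lane 3 (169), at 0.01 (1903) and with a log2 fold change of at least 1 (988). From 840 in AE17 they differed with DESeq2 (1774), voom (3925), no filter (550), lane (1), 1 fit (1324), lane 1 (14), 0.01 (75), fold change (246) and without 1 mouse (316 to 2066). From 3212 for the interaction they differed with lane (117), 0.01 (1513) and fold change (1347). Between the models they differed with lane, 5268 against 9138 in SC and 5008 against 9940 in IPL tumors, and with fold change, 3027 and 3430. At this depth, Fcer2a was at or under the counting limit in every SC tumor and Cr2 in every AE17 SC tumor.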

Other observations

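In AE17 IPL mouse 5 the levels of Cd79a, Cd79b, Ms4a1 and Cd22 were 1.45, 1.29, 1.34 and 1.27 times those of mouse 8, while Pax5 was 0.697 times. The ratio between the same mice was 1.99 for Fcer2a and 2.55 for Cr2.

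Ighm was at 1870 CPM in AB1 IPL mouse 2, against 371 and 805 CPM in AE17 IPL mice 5 and 8, while Cd79a was at 31.3 CPM in the first and at 42.1 and 29.01 CPM in the others. Ighd was at 6.23 CPM in AB1 mouse 2 and at 63.9 and 37.2 CPM in AE17 mice 5 and 8.

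Ccl21a, a chemokine of lymph node stroma, was at 75.1 CPM in AE17 IPL mouse 5, near the group median of 80.8 CPM, and at 0.513 CPM in mouse 8, the lowest of that group. Cxcl13 was at 23.8 and 25.9 CPM in those mice, beside a group median of 2.93 CPM.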
